A study of Zea mays with 6 samples.

Results

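The 6 gamma, beta and delta zeins of maize kernels are described here, taken by gene ID: the 27 kDa (Zm00001d020592), 50 kDa (Zm00001d020591) and 16 kDa (Zm00001d005793) gamma zeins, the 15 kDa beta zein (Zm00001d035760), and the 10 kDa (Zm00001d045937) and 18 kDa (Zm00001d037436) delta zeins. All 6 were among the 33051 genes listed, and all 6 passed the filter on low values. Messenger RNA of whole kernels of the inbred line KN5585 harvested 10 days after pollination was sequenced in 3 libraries labelled transgenic for ZmSUS1 and 3 libraries labelled non-transgenic control. The transgenic kernels came from 1 selected strain, and no source used here gives the promoter of the transgene. SUS1 (Zm00001d047253), the gene of the transgene, which encodes a sucrose synthase, stood at 155, 149 and 160 FPKM (fragment counts divided by gene length and by the mapped fragments of the library) in the libraries labelled transgenic and at 214, 210 and 221 FPKM in those labelled control. That direction goes against an overexpression, so the groups are called by their labels throughout, and every direction below rests on those labels. Replicate 3 of both groups stood apart from the others: the deviations of the pair from their group means correlated at 0.325 across genes, against 0.135 and 0.122 for replicates 1 and 2.

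Zeins are the prolamins of maize, the storage proteins that the starchy endosperm deposits in protein bodies inside the endoplasmic reticulum. Gamma and beta zeins are rich in cysteine, start the protein body and line its surface, while alpha and delta zeins fill its core. Delta zeins, and to a lesser degree the beta zein, are rich in methionine, an amino acid that is scarce in maize grain. The series was made to study starch after SUS1 was introduced, and the comparison asks whether transcripts of this second storage product differed between the labelled groups.

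Both delta zeins rose in the libraries labelled transgenic, the 10 kDa gene by 28.9% (95% interval of the fold 1.14 to 1.45) and the 18 kDa gene by 33.9% (1.24 to 1.45; n = 3 each). The call of the 18 kDa gene held in all 19 alternatives and that of the 10 kDa gene in 15 of them. On the deposited values 2.88% of all tested genes rose and 16.2% fell. None of the 3 gamma zeins nor the beta zein passed the same test on the deposited values, with mean differences between -7.49% and 9.11%. With the replicate number as a block, 3.49% of all tested genes rose and 18.3% fell. All 3 gamma zeins passed in that fit, the 27 kDa and 16 kDa genes higher and the 50 kDa gene lower. No label states such a pairing, and the block rests on correlations within these same data. Under 2 of the rescalings 4 and 5 of the 6 zeins rose, where 6.29% and 6.82% of all tested genes did. The 6 genes together made up 21.1 ± 0.587% of summed FPKM in libraries labelled transgenic and 19.3 ± 0.505% in those labelled control (SD, n = 3 each). In whole kernels, more endosperm cells and more zein RNA per cell cannot be told apart. Within a library, the ratios of the delta zeins to the gamma zeins and to the beta zein were higher in every library labelled transgenic than in any control.

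Zeins define the endosperm, and these transcripts were at high levels in all 6 kernel libraries. The 27 kDa gamma zein was the most abundant of all listed genes in each of the 6 libraries, and 5 of the 6 zeins were among the 20 most abundant genes by mean FPKM. The 15 kDa beta zein ranked 5, the 16 kDa gamma zein 6, the 10 kDa delta zein 9 and the 50 kDa gamma zein 18. The 18 kDa delta zein ranked 36. FPKM is scaled to gene length, and on that scale the mean of the 27 kDa gamma zein was 43.9 times that of the 18 kDa delta zein. How reads were assigned to genes is not stated, so folds between genes are approximate.

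The order of the 6 levels was the same in all 6 libraries, with one pair close together. The 27 kDa gamma zein stood 2.18-fold above the 15 kDa beta zein, which stood 1.21-fold above the 16 kDa gamma zein, by mean FPKM over all libraries. In neither group did the values of these neighbours overlap. The 16 kDa gamma zein and the 10 kDa delta zein were neighbours whose values overlapped in the libraries labelled transgenic and not in those labelled control: the ratio of the first to the second was 1.04 ± 0.0432 in the libraries labelled transgenic and 1.24 ± 0.112 in those labelled control (SD, n = 3 each). The 10 kDa delta zein was 2.97-fold above the 50 kDa gamma zein, and the 50 kDa gamma zein 4.99-fold above the 18 kDa delta zein, without overlap in either group.

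**Figure D1:**
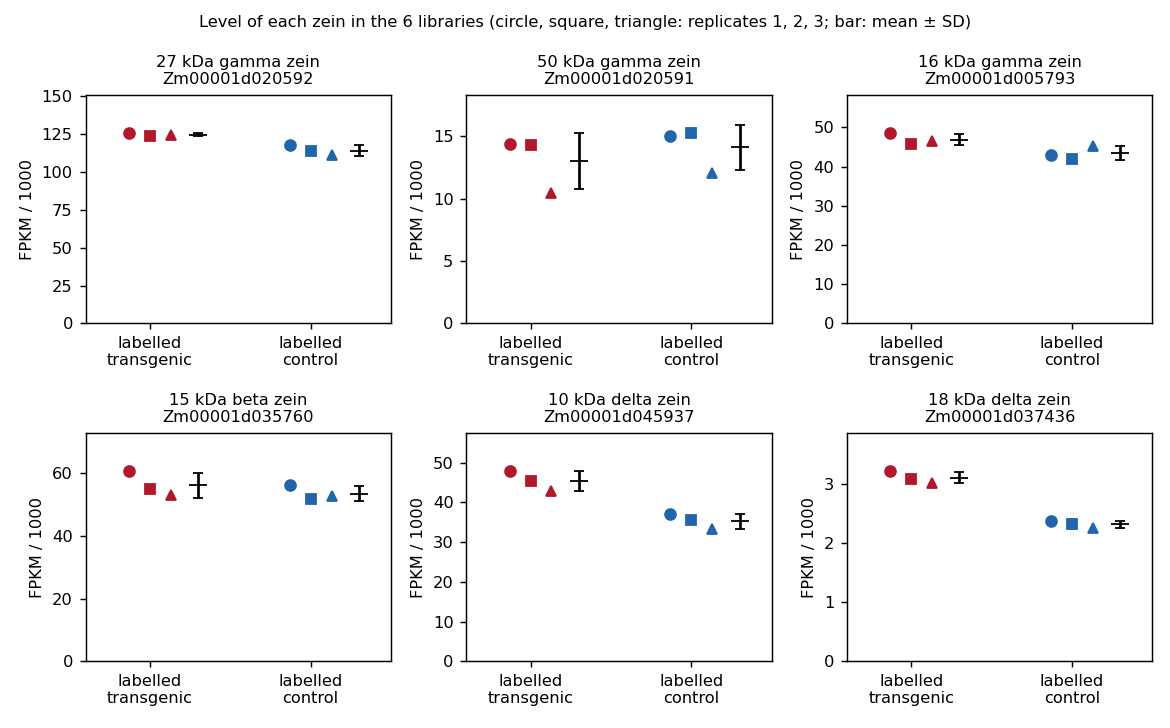
FPKM divided by 1000 (axes from 0) of each of the 6 zeins in the libraries labelled transgenic (left, red) and labelled control (right, blue), with replicates 1, 2 and 3 as circle, square and triangle and the mean ± SD of 3 libraries as a bar. The groups are apart for both delta zeins and, by less, for the 27 kDa and 16 kDa gamma zeins; they overlap for the 50 kDa gamma and 15 kDa beta zeins.

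The gamma zeins form the outer layer of the protein body, and the 27 kDa protein is the one most closely tied to the start of the body. The 27 kDa gamma zein had 125543, 123641 and 124506 FPKM in the libraries labelled transgenic and 117716, 113849 and 110918 FPKM in those labelled control. Every library labelled transgenic lay above every control, but the difference did not pass the test across genes. On the log2 scale the difference was 0.13 ± 0.0712 (SE; limma, adjusted p = 0.25), and the 95% interval of the fold ran from 0.974 to 1.22. Blocking on replicate number, the same difference passed (limma, adjusted p = 0.00789).

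The 16 kDa gamma zein is a shorter relative of the 27 kDa protein. It had 48472, 45648 and 46532 FPKM in the libraries labelled transgenic and 43034, 41802 and 45272 FPKM in those labelled control. The groups did not overlap, although the lowest library labelled transgenic and the highest control lay close together. The fitted log2 fold change came to 0.11 ± 0.0671 (SE; limma, adjusted p = 0.275), with a 95% interval of the fold from 0.972 to 1.20, and the adjusted p was 0.0327 with the replicate block. The ratio of the 16 kDa to the 27 kDa transcript was 0.376 ± 0.00875 in the libraries labelled transgenic and 0.38 ± 0.0241 in those labelled control (SD, n = 3 each; exact permutation test, 2-sided, p = 1).

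The 50 kDa gamma zein is the least abundant of the 3 gamma transcripts here, and its ID is next in number to that of the 27 kDa gene. It had 14386, 14275 and 10433 FPKM in the libraries labelled transgenic and 15026, 15216 and 12016 FPKM in those labelled control. Replicate 3 was the lowest library of each group, and the groups overlapped. Replicate 3 stood at 0.728 of the mean of replicates 1 and 2 in the libraries labelled transgenic and at 0.795 in those labelled control, a wider gap than for any of the other 5 zeins, whose replicate 3 stood between 0.916 and 1.07 of that mean. Its log2 fold change (± SE) was -0.12 ± 0.142 (limma, adjusted p = 0.592), and the 95% interval of the fold ran from 0.734 to 1.15. Within numbers it was lower in the library labelled transgenic for each of the 3 numbers, at 0.957, 0.938 and 0.868 of the control, and with the replicate block the fall passed (limma, adjusted p = 0.0372). The sign of this gene depended on the scaling and on 1 library: its log2 fold change came to 0.029 after median-ratio rescaling, 0.047 when libraries were scaled on all but the 20 most abundant genes, and 0.033 without transgenic replicate 3. That last fit kept control replicate 3, the lowest control. Without replicate 3 of both groups the log2 fold change stayed negative, at -0.077. The ratio of the 27 kDa to the 50 kDa transcript, which does not depend on the library total, was 9.77 ± 1.87 in the libraries labelled transgenic and 8.18 ± 0.925 in those labelled control (SD, n = 3 each). Its single values were 8.73, 8.66 and 11.9 in the libraries labelled transgenic and 7.83, 7.48 and 9.23 in those labelled control, so the groups overlapped (exact permutation test, 2-sided, p = 0.3). The difference of the log2 ratios, 0.25, was 0.093 without transgenic replicate 3.

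The 15 kDa beta zein shares the surface of the protein body with the gamma zeins and contains both cysteine and methionine. It had 60560, 54853 and 52949 FPKM in the libraries labelled transgenic and 56064, 51657 and 52606 FPKM in those labelled control. The groups overlapped, and replicate 1 was the highest library of each. On the log2 scale the difference was 0.069 ± 0.0781 (SE; limma, adjusted p = 0.572), and the 95% interval of the fold ran from 0.926 to 1.19. When single libraries were left out the log2 fold change ranged from 0.013 without transgenic replicate 1, the highest of the 6 libraries, to 0.11 without transgenic replicate 3.

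The 10 kDa delta zein, a core protein known for its high methionine content, had 47777, 45349 and 42881 FPKM in the libraries labelled transgenic and 36955, 35438 and 33160 FPKM in those labelled control. The lowest library labelled transgenic lay above the highest control. The mean was 45336 ± 2448 FPKM in the libraries labelled transgenic and 35184 ± 1910 FPKM in those labelled control (SD, n = 3 each). The fitted log2 fold change came to 0.37 ± 0.0743 (SE; limma, adjusted p = 0.0124), with a 95% interval of the fold from 1.14 to 1.45. The ratio of libraries with the same number was 1.29, 1.28 and 1.29. The call was lost without transgenic replicate 2 (limma, adjusted p = 0.0634) and without control replicate 2 (adjusted p = 0.0582), where the log2 fold changes were 0.36 and 0.37, and also with quantile normalization (log2 fold change 0.24, adjusted p = 0.102) and with no filter on low genes (adjusted p = 0.174).

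The 18 kDa delta zein, the second methionine-rich core protein, had 3217, 3090 and 3023 FPKM in the libraries labelled transgenic and 2372, 2334 and 2261 FPKM in those labelled control. The groups were far apart for their spread, at 3110 ± 98.5 FPKM in the libraries labelled transgenic and 2322 ± 56.7 FPKM in those labelled control (SD, n = 3 each). Its log2 fold change (± SE) was 0.42 ± 0.0501 (limma, adjusted p = 0.0013), with a 95% interval of the fold from 1.24 to 1.45. It stayed past the threshold in all 19 alternatives, with log2 fold changes from 0.40 to 0.59. The 2 delta genes differ in level, the 10 kDa gene being 14.6 ± 0.346 times the 18 kDa gene in the libraries labelled transgenic and 15.1 ± 0.457 times in those labelled control (SD, n = 3 each), and those ratios overlapped (exact permutation test, 2-sided, p = 0.3).

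Of the 20514 genes tested, 2.88% rose and 16.2% fell at an adjusted p under 0.05. Against this background, 2 of the 6 zeins rose and 0 fell (limma), and both that rose were delta zeins; at an unadjusted p under 0.05 the counts were also 2 and 0, against 5.76% and 28.4% of all tested genes. With the replicate block 4 of the 6 rose and 1 fell, against 3.49% and 18.3% of all tested genes. With replicate 3 of both groups left out, 2 of the 6 rose and 0 fell (limma), against 2.04% and 12% of all tested genes: again the 10 kDa (adjusted p = 0.00438) and the 18 kDa delta zein (adjusted p = 0.00189). In 4 of the 6, the libraries labelled transgenic all lay above the controls, as in 7.36% of all tested genes. They all lay below the controls in 0 of the 6, but in 6480 of the 20514 tested genes. Among the 20 most abundant genes, 5 of them zeins of this set, 11 were apart and higher and 1 was apart and lower. Of those 20 genes, 4 rose and 0 fell (limma): the 10 kDa delta zein and the alpha zein IDs Zm00001d048808, Zm00001d048810 and Zm00001d048816. Most of the other genes among the 20 were also alpha zein IDs, so they do not stand for abundant genes in general. Outside the 6 zeins, 63 genes had a mean that reached 1000 FPKM, of which 8 rose and 21 fell (limma). The median log2 fold change was 0.12 over the 6 zeins, 0.11 over the 20 most abundant genes and -0.13 over all tested genes.

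Because the median gene was lower by 0.13 on the log2 scale, the fold changes of the zeins depend on how the libraries are scaled. Relative to that median, the log2 fold change was 0.55 for the 18 kDa and 0.49 for the 10 kDa delta zein. It was 0.25 for the 27 kDa gamma, 0.24 for the 16 kDa gamma, 0.19 for the 15 kDa beta and 0.0062 for the 50 kDa gamma zein. With median-ratio rescaling, which brings the median gene to 0.00067, 4 of the 6 rose, against 6.29% of all tested genes: both delta zeins, the 27 kDa gamma zein (log2 fold change 0.28, limma, adjusted p = 0.0182) and the 16 kDa gamma zein (0.26, adjusted p = 0.0304). With libraries scaled on all but the 20 most abundant genes, which include 5 of the zeins, the 15 kDa beta zein was also past the threshold (0.24, adjusted p = 0.0227), so that 5 of 6 rose against 6.82% of all genes. Quantile normalization forces the most abundant genes of every library to the same values. It left the 27 kDa gamma, the 16 kDa gamma and the 15 kDa beta zein at a log2 fold change of 0, and only the 18 kDa delta zein of the 6 past the threshold (0.44, adjusted p = 0.0115), against 6.63% of all tested genes that rose. Which of the gamma and beta zeins are called therefore turns on the scaling, whereas both delta zeins kept a positive log2 fold change under all 5 scalings, the deposited one and TPM included, and among them only quantile normalization took the call from the 10 kDa gene.

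**Figure D2:**
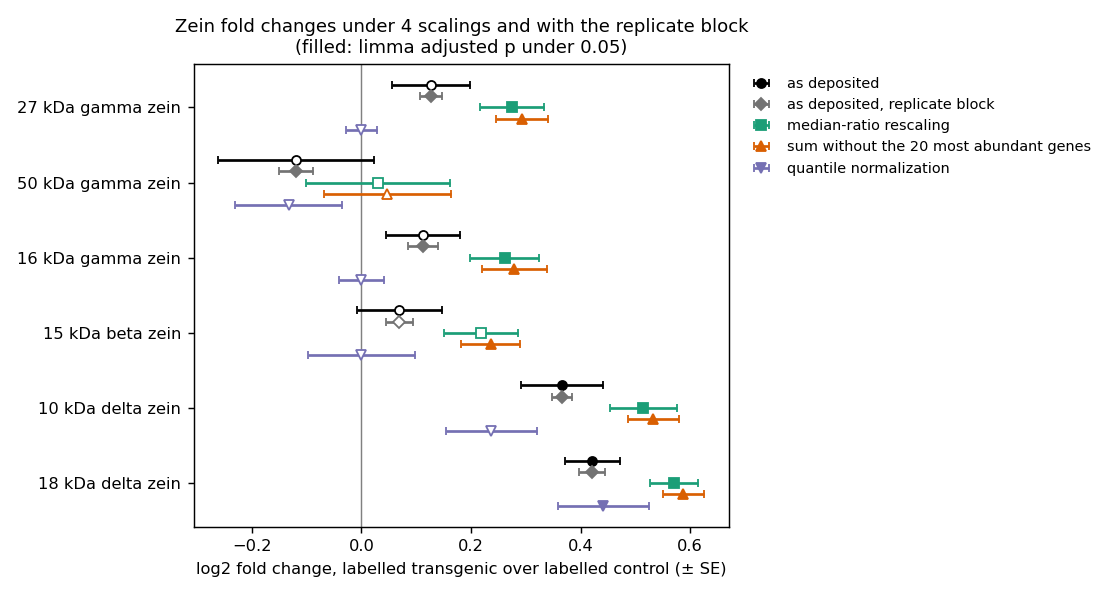
Log2 fold change of each zein (points, with the standard error as bars; libraries labelled transgenic over labelled control) with values as deposited, with the replicate block, and under 3 rescalings; filled points passed a limma adjusted p of 0.05. Both delta zeins lie to the right of 0 throughout, from 0.24 to 0.59, while the 50 kDa gamma zein changes sign with the scaling.

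The share of summed FPKM that each library gave to the 6 zeins was 21.8%, 20.95% and 20.6% in the libraries labelled transgenic and 19.8%, 19.1% and 18.8% in those labelled control. The groups did not overlap, and the difference of 1.83 percentage points gave p = 0.1 in the exact permutation test (2-sided), the smallest that 3 against 3 libraries allow. In all, 18 shares and ratios were compared by exact permutation tests, of which 8 reached p = 0.1, with a Benjamini-Hochberg adjusted p of 0.225. A share cannot rise without the rest falling: all other listed genes summed to 1080370 ± 1677 FPKM in the libraries labelled transgenic and 1099820 ± 3621 FPKM in those labelled control (SD, n = 3 each).

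By class, the gamma zeins made up 13.5 ± 0.17% of summed FPKM in libraries labelled transgenic and 12.6 ± 0.243% in those labelled control (SD, n = 3 each; exact permutation test, p = 0.1). The beta zein held 4.10 ± 0.262% in the libraries labelled transgenic and 3.92 ± 0.157% in those labelled control (SD, n = 3 each; exact permutation test, p = 0.4). The delta zeins held 3.54 ± 0.162% in the libraries labelled transgenic and 2.75 ± 0.137% in those labelled control (SD, n = 3 each; exact permutation test, p = 0.1). The shares of the gamma and of the delta zeins did not overlap between the groups, and those of the beta zein did. The overlap of the beta zein depended on the scaling. Its groups were apart after median-ratio rescaling. Its share gave p = 0.1 (exact permutation test) with the 20 most abundant genes and the 6 zeins left out of the denominator. Of the difference in the share of the 6 genes, 39.7% came from the 10 kDa delta zein and 39.1% from the 27 kDa gamma zein, although the 27 kDa transcript was the far more abundant of the pair. The 16 kDa gamma zein gave 13.1%, the beta zein 9.52% and the 18 kDa delta zein 3.09%, and the part of the 50 kDa gamma zein was negative, at -4.52%. The difference in the share of the beta zein, 0.175 percentage points, ranged from 0.0272 without transgenic replicate 1 to 0.277 without transgenic replicate 3 when single libraries were left out.

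**Figure D3:**
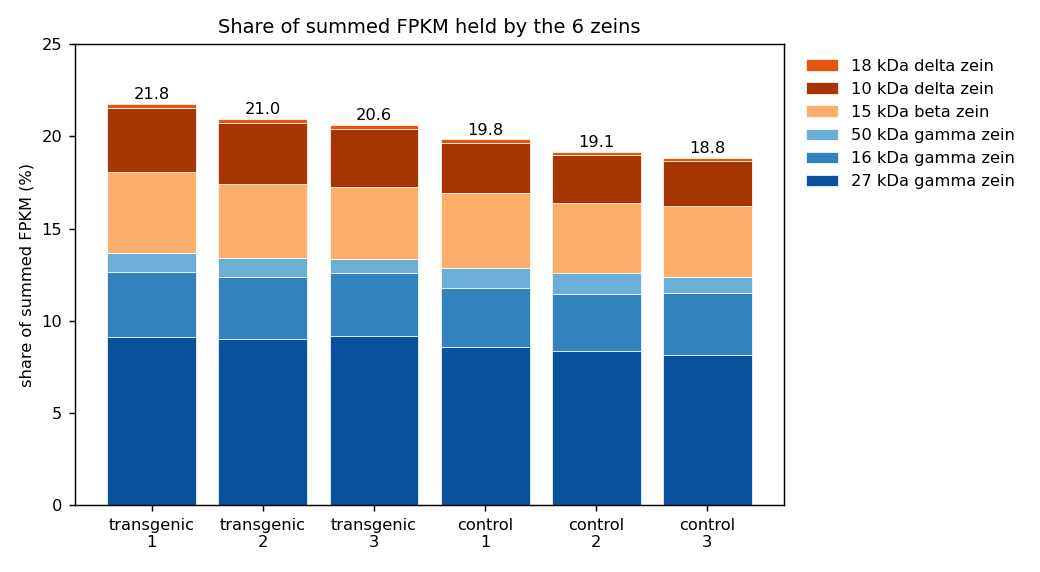
Share of the summed FPKM of each library (percent, axis from 0) held by the 6 zeins, stacked by gene, with the total printed above each bar. The 3 libraries labelled transgenic stand at 20.6% to 21.8%, above the 3 labelled control at 18.8% to 19.8%.

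Within the FPKM of the 6 genes, the delta zeins took a larger part in the libraries labelled transgenic. The 10 kDa delta zein made up 15.9%, 15.8% and 15.3% of the FPKM of the 6 genes in the libraries labelled transgenic and 13.6%, 13.6% and 12.9% in those labelled control. The 18 kDa delta zein made up 1.08 ± 0.00314% in the libraries labelled transgenic and 0.885 ± 0.0112% in those labelled control (SD, n = 3 each). Neither of these overlapped between the groups (exact permutation test, p = 0.1 each). The parts held by the other 4 genes overlapped between the groups, with exact permutation p from 0.2 to 0.9; the 27 kDa gamma zein held 43.1 ± 1.28% in the libraries labelled transgenic and 43.5 ± 0.233% in those labelled control (SD, n = 3 each).

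Ratios within a library do not depend on its total. The FPKM of the delta zeins relative to the gamma zeins was 0.271, 0.264 and 0.253 in the libraries labelled transgenic and 0.224, 0.221 and 0.211 in those labelled control, 1.20-fold higher without overlap (exact permutation test, 2-sided, p = 0.1, n = 3 each). Relative to the beta zein, the delta zeins stood at 0.842, 0.883 and 0.867 in the libraries labelled transgenic and at 0.701, 0.731 and 0.673 in those labelled control, 1.23-fold higher without overlap (exact permutation test, p = 0.1, n = 3 each). The ratio of the beta zein to the gamma zeins was 0.304 ± 0.0155 in the libraries labelled transgenic and 0.311 ± 0.0084 in those labelled control, with overlap (exact permutation test, p = 0.5, n = 3 each). The delta zeins thus differed between the groups relative to both other classes, by amounts larger than the spread between replicates, in a design that cannot give a p below 0.1. These ratios between classes were chosen after the values had been seen.

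Alpha zeins, the core proteins encoded by tandem gene copies, were compared through the IDs numbered Zm00001d048806 to Zm00001d048817, of which 10 were listed, and Zm00001d048847 to Zm00001d048852, of which 6 were listed. Other abundant alpha zein loci lie outside these ranges and were not included, so the 16 IDs stand for part of the class only. In the first range 3 of 10 rose and 1 fell (limma), with a median log2 fold change of 0.22, and in the second 0 of 6 passed, with a median of -0.047. Over all tested genes 2.88% rose and 16.2% fell by the same rule. At an unadjusted p under 0.05 the counts were 5 higher and 1 lower in the first range and 0 in the second, where all tested genes gave 5.76% and 28.4%. Zm00001d048808, Zm00001d048810 and Zm00001d048816 rose, with log2 fold changes of 0.38, 0.50 and 0.33, and Zm00001d048814 fell at a low level, with 3.82 ± 1.06 FPKM in the libraries labelled transgenic and 7.21 ± 0.672 FPKM in those labelled control (SD, n = 3 each); these 4 are named because they passed. Near-identical copies in these ranges may share reads, so single alpha zein values are uncertain. The 16 alpha zein IDs together made up 25.8 ± 0.857% of summed FPKM in libraries labelled transgenic and 24.3 ± 0.984% in those labelled control (SD, n = 3 each). The ratio of the 6 gamma, beta and delta zeins to the 16 alpha zein IDs was 0.869, 0.814 and 0.771 in the libraries labelled transgenic and 0.849, 0.793 and 0.744 in those labelled control, and the groups overlapped (exact permutation test, p = 0.7, n = 3 each). Within each of the 3 replicate numbers the library labelled transgenic had the higher ratio, and the exact permutation test within numbers gave p = 0.25, the smallest it allows. The delta zeins alone, relative to the alpha zein IDs, were at 0.148, 0.137 and 0.126 in the libraries labelled transgenic and at 0.123, 0.115 and 0.103 in those labelled control, 1.21-fold higher without overlap (exact permutation test, p = 0.1, n = 3 each). Against the first range alone the groups overlapped: transgenic replicate 3 (45905 over 222779 FPKM) lay below control replicate 1 (39327 over 178770 FPKM). That ratio was not tested. Against all 16 IDs the log2 difference, 0.271, ranged from 0.201 to 0.331 without 1 library. The exact permutation test gave p = 0.2 without transgenic replicate 1 or 2, or control replicate 2 or 3. Without either other library the exact permutation test gave p = 0.1.

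**Figure D4:**
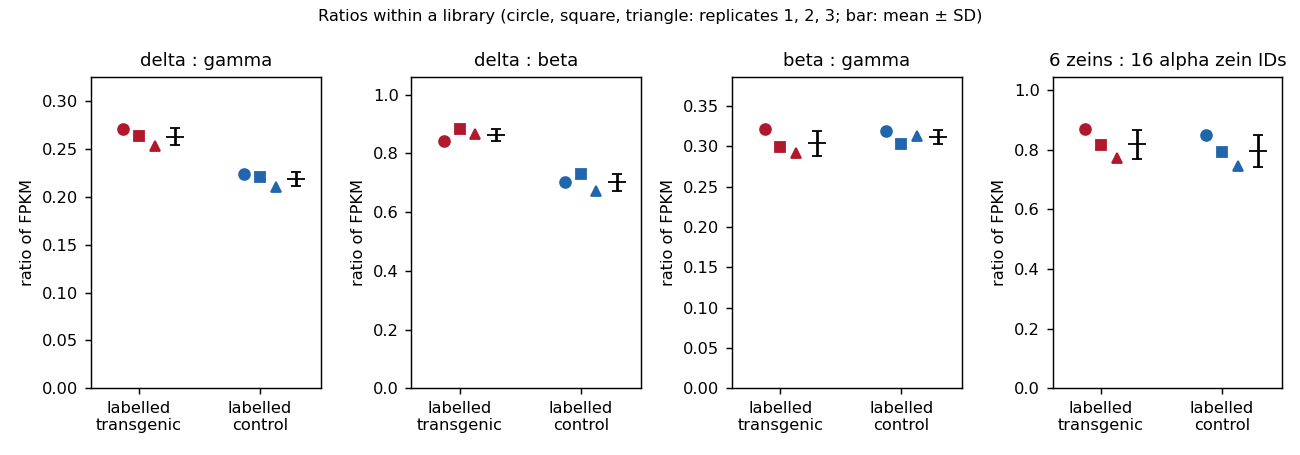
Ratios of summed FPKM within a library (axes from 0) for delta to gamma zeins, delta zeins to the beta zein, the beta zein to gamma zeins, and the 6 zeins to the 16 alpha zein IDs, in libraries labelled transgenic (left) and labelled control (right), with replicates 1, 2 and 3 as circle, square and triangle and the mean ± SD of 3 libraries as a bar. The groups are apart in the 2 ratios that have the delta zeins on top and overlap in the other 2.

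Among the 69 genes whose mean reached 1000 FPKM, 10 rose and 21 fell (limma), and the 2 delta zeins were 2 of the 10. By size of the log2 fold change the 18 kDa delta zein ranked 4 and the 10 kDa delta zein 8 of the 69. The alpha zein IDs among the 69 ranked from 2 to 46, and Zm00001d048810, which also rose, ranked 3. The median of the 63 such genes other than the 6 zeins was -0.082. Over all tested genes, 96.9% had a lower log2 fold change than the 18 kDa delta zein and 96.0% a lower one than the 10 kDa delta zein, against 85.8% for the 27 kDa gamma zein and 51.0% for the 50 kDa gamma zein.

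**Figure D5:**
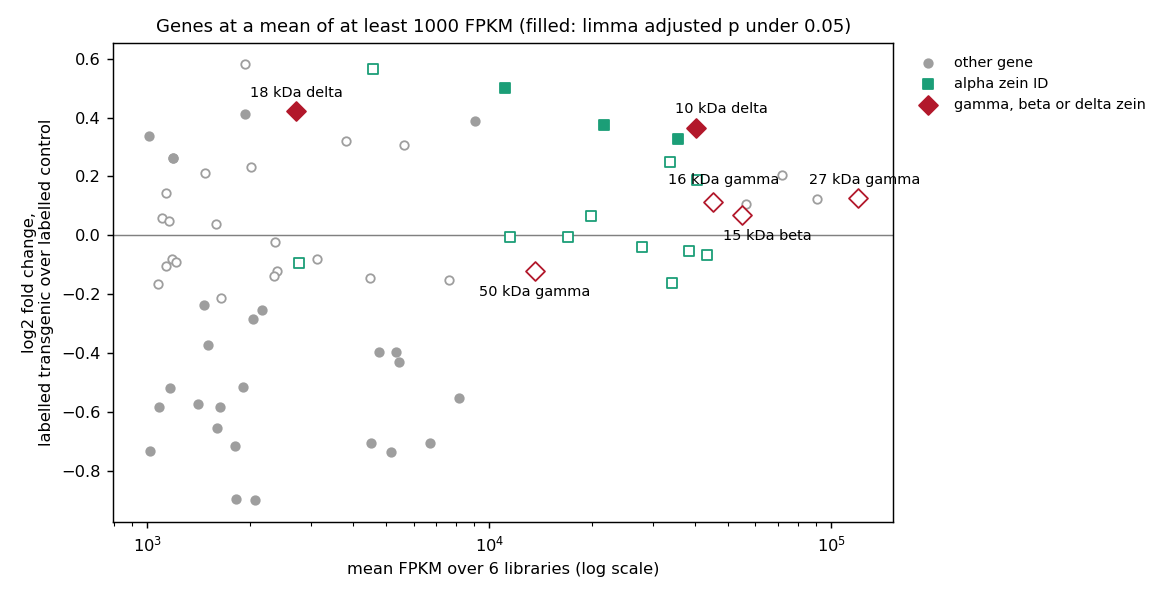
Log2 fold change (libraries labelled transgenic over labelled control) against mean FPKM on a log axis for the 69 genes whose mean reached 1000 FPKM, with the 6 zeins as diamonds and alpha zein IDs as squares; filled points passed a limma adjusted p of 0.05. The 2 delta zeins are the only filled diamonds, at 0.37 and 0.42.

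Likeness of profile was measured as the root-mean-square difference between mean-centred log2(FPKM + 1) profiles over the 6 libraries, among genes whose mean reached 100 FPKM. The 2 delta zeins were close to each other, at 0.0424, the 10 kDa gene ranking 3 among the 686 candidates for the 18 kDa gene and the 18 kDa gene 5 for the 10 kDa gene. The gene closest to the 10 kDa delta zein was Zm00001d024778 at 0.039, and the closest to the 18 kDa delta zein was Zm00001d003401 at 0.0244. For the 27 kDa gamma zein it was Zm00001d022077 at 0.0181, for the 16 kDa gamma zein Zm00001d026286 at 0.0152 and for the 15 kDa beta zein Zm00001d036125 at 0.0161. For the 27 kDa gamma zein the nearest zein, the 16 kDa gamma zein, stood at 0.0558 in place 57 of 686. The 50 kDa gamma zein stood furthest from the other zeins. The 50 kDa gene's nearest zein among the 6 was the 15 kDa beta zein at 0.185, in place 277 of 686, while its closest genes were Zm00001d028509 at 0.0458 and the alpha zein ID Zm00001d048848 at 0.0503. These values describe the 6 libraries only.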

How the data were processed

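The authors deposited 1 table of FPKM values for each of the 6 libraries, per the file headers, with 2 decimals. The sources used here name no aligner, counter, genome build or annotation; DESeq2 stands in the submitters' processing notes, with no role stated. Total fragment counts are not given, so the depth is unknown and no counting interval was computed; summed FPKM was 1359750 to 1378940 per library. FPKM divides by the library total, so abundant genes such as zeins affect all others.

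The groups and replicate numbers come from the sample titles, and the series text calls the libraries biological replicates. log2(FPKM + 1) was computed for the 20514 genes whose mean reached 1 FPKM and fitted with limma 3.58.1 (R 4.3.3; trended variance, 2-sided, Benjamini-Hochberg over all tested genes, threshold 0.05). The model had first been tried on simulated data with independent genes and no shift between libraries. That trial does not bear on how the scaling or replicate 3 affects the calls. Shares and ratios were compared with exact permutation tests. None of the 6 zeins had values identical to another gene. Deviations of same-numbered libraries correlated at 0.135, 0.122 and 0.325 across genes, all over 0.1, so libraries of the same number were treated as pairs in the block; no label states a pairing, and transgenic 1 with control 2 gave 0.105.

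The 6 genes named, SUS1, 2 genes closest in profile to each zein and the alpha zein ID ranges were the rule for named genes, and the closest or both were printed. Members, their class names and lists were chosen with earlier results of these data known. Alternatives covered pseudocount (0.1, 0.5), filter (none, 5 FPKM), 4 scalings (one of them TPM, a rescaling to a sum of 1000000), variance priors, the replicate block and leaving out libraries.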

Additional observations from a re-analysis of the deposited data

How the results depend on the processing

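The alternatives were listed with earlier results of these data known; leaving out replicate 3 of both groups, median-ratio rescaling joined to the replicate block, and the ratios between zein classes and the parts of the 6-zein sum were added after seeing the data. On deposited values 2 zeins rose and 0 fell. The number that rose, with the share of all tested genes that rose in the same fit, was 4 (6.29%) with median-ratio rescaling, 5 (6.82%) without the 20 most abundant genes in the sum, 1 (6.63%) with quantile normalization, 1 (1.66%) with no filter, 1 or 2 (1.73% to 2.24%) when 1 library was left out, 4 (3.49%) with the replicate block, where 1 fell (18.3%), and 5 (7.01%) with median-ratio rescaling and the block.

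The 18 kDa delta zein kept its call in all 19 alternatives. The 10 kDa delta zein kept its direction in all 19 and its call in 15; its log2 fold change was 0.24 with quantile normalization and 0.37 with no filter, where it missed the threshold, and 0.32 to 0.41 when 1 library was left out. The 27 kDa gamma zein passed at 0.28 (median-ratio), 0.29 (sum without the 20 genes), 0.13 (replicate block) and 0.28 (both median-ratio and block). The 16 kDa gamma zein passed at 0.26, 0.28, 0.11 and 0.26 in the same 4 fits. The 15 kDa beta zein passed at 0.24 without the 20 genes and 0.22 with median-ratio rescaling and the block. The 50 kDa gamma zein passed at -0.12 with the block, was positive at 0.029 with median-ratio rescaling (with or without the block) and 0.047 without the 20 genes, and ranged from -0.23 to 0.033 when 1 library was left out. The cause of these changes was not tested, beyond the scalings' own shift of the median gene.

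Left-out libraries gave 2331 to 3316 calls over all genes, against 3907, and the share of calls that were higher was 15.1% as deposited, 46.1% with median-ratio rescaling, 48.5% with quantile normalization and 49.98% without the 20 genes. The difference in the log2 ratio of the 6 zeins to the alpha zein IDs, 0.041, was -0.0498 against the first ID range alone and ranged from -0.0063 to 0.088 when 1 library was left out. The 16 kDa to 27 kDa ratio changed sign, at 0.043 without replicate 3 of both groups and from -0.041 to 0.038 without 1 library. In percent of the 6-zein sum, the difference for the 27 kDa gamma zein, -0.355 percentage points, ranged from -1.001 to 0.279 when 1 library was left out, and that for the 16 kDa gamma zein, -0.308, from -0.64 to 0.259, and was 0.0717 without replicate 3 of both groups. Shares of all classes kept their direction, and the replicate block changed no other call. With the block, exact tests cannot go below p = 0.25.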
